A study of Homo sapiens with 24 samples.

Results

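The genes of voltage-gated sodium and calcium channels were followed in an established human cell line, D425, which is from a medulloblastoma, over 96 h of induction of a short hairpin RNA (shRNA) against OTX2. They were all probe sets with 1 gene symbol that starts with SCN and ends in a number and A or B, or that starts with CACNA, CACNB, CACNG, CACN1 or CACN2. This rule found 93 of the 54675 probe sets on the array and 38 genes of the 19775 with a probe set of 1 symbol. By role these were 9 sodium channel alpha subunits, 3 sodium channel beta subunits, 10 calcium channel alpha1 subunits, 4 alpha2delta subunits, 3 beta subunits, 8 gamma subunits and CACNA1G-AS1, an antisense RNA that meets the rule through its prefix alone. The 18 arrays labelled shOTX2 came from D425 cells whose hairpin against OTX2 is switched on by doxycycline. They form 3 independent time courses, sampled at 0, 8, 16, 24, 48 and 96 h after doxycycline. The 6 control arrays came from 1 time course of D425 control cells that received doxycycline at the same times, and the labels do not say what these cells carry in place of the hairpin. The control has 1 array at each time and so no replicate of its own. OTX2 is a homeobox transcription factor needed for forebrain, cerebellar and retinal development.

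Voltage-gated channels open when the membrane depolarises. Sodium channels are built around 1 large alpha subunit that forms the pore, carry the rising phase of the action potential in neurons and muscle, and are held in the membrane and tuned by small beta subunits. Calcium channels have a pore-forming alpha1 subunit that is joined in the high-voltage types by an intracellular beta subunit and an extracellular alpha2delta subunit, and they couple electrical activity to transmitter release, contraction and gene expression. Most genes named gamma encode partners of AMPA glutamate receptors rather than calcium channel subunits.

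Of the 38 genes, 25 passed the filter on dim probe sets (signal above the array median in at least 3 of 24 arrays) and were tested. At 96 h against 0 h in the shOTX2 arrays, 9 of the 25 rose and 2 fell at an adjusted p under 0.05 by limma, against 21.1% of all 13903 tested genes that rose and 22.5% that fell. The 11 called genes are 44% of those tested, close to the 43.6% called among all genes. SCN3A, CACNA2D4, SCN1A, CACNA2D2, SCN8A and SCN3B each rose by more than 1 on the log2 scale, which 6 of 25 did, while 16.0% of all tested genes were called with a change of that size in either direction. CACNB2 and CACNA2D1 fell. The median change over the 25 genes was 0.32 on the log2(signal + 16) scale, and it was within 0.001 of zero over all genes. In bulk RNA a change in the share of cells of one kind and a change in the RNA of each cell cannot be told apart.

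**Figure D1:**
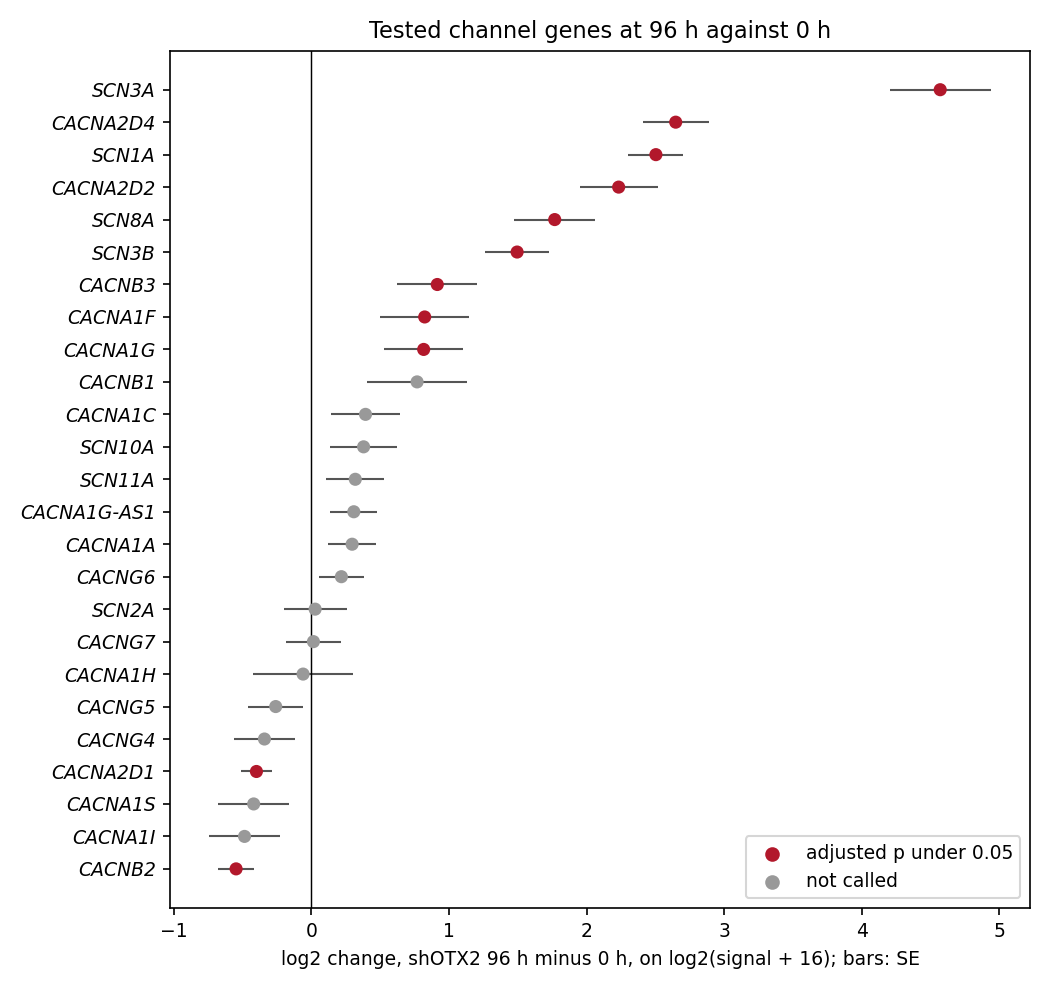
Log2 change at 96 h against 0 h in the shOTX2 arrays, on the log2(signal + 16) scale, for the 25 tested channel genes, ordered by size. Points are limma estimates over 3 courses, bars are their SE, and red marks an adjusted p under 0.05. SCN3A stands highest at 4.57 and CACNB2 lowest at -0.55.

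The arrays themselves bear on these values in a few ways. Array medians lay between 16.3 and 20.6, so many channel probe sets were read near the middle of the array, where the added 16 dampens log2 changes. The ratio of the 3' to the 5' actin control probe sets, which falls with better preserved RNA, averaged 1.42 ± 0.084 in course 1, 2.07 ± 0.198 in course 2 and 1.91 ± 0.057 in course 3, against 1.40 ± 0.086 in the control course (SD, n = 6 each). Its part in the results was not tested, and values are therefore given by course. On its brighter probe set OTX2 read between 3596 and 4683 in the induced shOTX2 arrays, against 4417 to 4839 at 0 h. Its 96 h change there of -0.15 was not called by limma (adjusted p = 0.172). The other OTX2 probe set averaged 3295 ± 275 at 96 h and 2437 ± 22.2 at 8 h in shOTX2, against 3027 ± 155 at 0 h (SD, n = 3 each). The positions of the hairpin and of these probes are not stated, so OTX2 does not check the labels here.

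The windows just upstream of the RefSeq starts were read for TAATCC, the core bound by OTX and CRX homeodomains, since the hairpin was aimed at OTX2. The motif, taken on both strands in the 250 bases before each start (RefSeq, GRCh38.p14), was in 4 of 36 windows of 26 channel genes, which is 11.1%, and in 5.62% of the 35116 windows of all genes. The other 12 channel genes had no window to read. SCN3A, CACNA2D4, SCN3B and CACNA1G, all called higher at 96 h, are among them. The 4 windows with the motif belong to CACNA1F, CACNA1I, CACNA1S and SCN7A. Only CACNA1F among these was called at 96 h, while CACNA1I and CACNA1S were not called and SCN7A was too dim to test. A match is a string of letters and shows no binding. The windows are printed 5' to 3' on the gene's strand, CACNA1F because it holds the motif (in capitals, with its first base 37 bases before the start), and SCN1A and SCN8A because both sodium channel genes were called higher at 96 h while their windows differ in base composition.
CACNA1F chrX:49233341-49233590, minus strand: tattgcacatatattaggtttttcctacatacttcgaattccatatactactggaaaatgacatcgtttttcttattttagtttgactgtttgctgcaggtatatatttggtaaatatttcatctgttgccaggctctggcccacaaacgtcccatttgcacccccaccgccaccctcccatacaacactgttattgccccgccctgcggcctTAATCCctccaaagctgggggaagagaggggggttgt
SCN1A chr2:166128021-166128270, minus strand: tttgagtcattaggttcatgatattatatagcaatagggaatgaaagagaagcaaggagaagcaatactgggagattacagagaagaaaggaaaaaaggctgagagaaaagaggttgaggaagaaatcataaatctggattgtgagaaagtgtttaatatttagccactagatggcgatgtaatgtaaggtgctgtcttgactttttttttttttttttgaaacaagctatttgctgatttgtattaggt
SCN1A chr2:166149162-166149411, minus strand: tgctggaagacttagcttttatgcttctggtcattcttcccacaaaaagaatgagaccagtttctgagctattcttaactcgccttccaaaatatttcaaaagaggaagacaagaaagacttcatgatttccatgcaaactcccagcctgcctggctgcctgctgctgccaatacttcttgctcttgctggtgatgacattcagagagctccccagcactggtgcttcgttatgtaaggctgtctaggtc
SCN8A chr12:51590983-51591232, plus strand: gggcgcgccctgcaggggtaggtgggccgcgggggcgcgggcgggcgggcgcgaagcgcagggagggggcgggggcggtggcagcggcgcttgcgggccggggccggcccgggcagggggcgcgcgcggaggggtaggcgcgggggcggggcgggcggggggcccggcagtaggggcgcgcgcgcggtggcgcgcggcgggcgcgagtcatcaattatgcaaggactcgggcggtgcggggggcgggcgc
The SCN1A windows hold 33.6% and 45.6% G and C and 1 and 2 CpG pairs. The SCN8A window holds 85.6% G and C and 45 CpG pairs, against medians of 58.0% and 11 over all windows.

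Of the 9 sodium channel alpha subunit genes, 6 were tested. SCN3A, SCN1A and SCN8A rose at 96 h, and SCN2A, SCN10A and SCN11A were not called at that time. SCN3A, which encodes Nav1.3, the alpha subunit typical of embryonic neurons, read 1.0, 10.6 and 21.2 at 0 h in courses 1, 2 and 3, 3.3, 12.1 and 18.6 at 8 h, and 2.8, 19.9 and 23.1 at 16 h. It read 3.2, 16.4 and 32.3 at 24 h, 146.0, 180.1 and 285.1 at 48 h, and 530.4, 755.4 and 520.4 at 96 h. In each course SCN3A stayed near its starting level through 24 h and then climbed at both later times, with no overlap between 96, 48 and 24 h. The control course read 15.5, 15.6, 17.1, 17.3, 25.2 and 39.8 from 0 to 96 h. Its last array was thus the brightest of the control, and lay below every shOTX2 array of 48 and 96 h. The log2 change in shOTX2 was 4.57 at 96 h (SE 0.37, adjusted p = 1.83e-08) and 3.05 at 48 h (adjusted p = 4.71e-06, limma). A second SCN3A probe set read 28.8, 34.3 and 32.9 at 96 h, against 15.0, 20.8 and 31.8 at 0 h. That probe set was not called (log2 change 0.34, adjusted p = 0.293, limma), so the rise of SCN3A rests on 1 of its 2 probe sets, one whose suffix _s_at marks probes shared by several transcripts.

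SCN1A, which encodes Nav1.1, prominent in inhibitory neurons, moved first. It read 7.4, 6.9 and 14.2 at 0 h, 5.3, 2.1 and 12.3 at 8 h, and 20.0, 17.9 and 15.0 at 16 h. It read 43.9, 49.2 and 31.2 at 24 h, 147.6, 239.3 and 179.7 at 48 h, and 130.2, 117.0 and 136.0 at 96 h. Every shOTX2 array of 24 h and later lay above every 0 h array, and all 96 h arrays lay below all 48 h arrays. In the control the signals were 27.6, 20.3, 17.7, 22.4, 29.0 and 18.0 over the same times, so it began above the shOTX2 arrays and stayed within a narrow band. The log2 change was 1.17 at 24 h (SE 0.20, adjusted p = 0.00156), 2.99 at 48 h (adjusted p = 6.16e-09) and 2.50 at 96 h (adjusted p = 1.79e-08, limma). SCN1A was the only channel gene called at 24 h, when 6.15% of all genes were called. With the course as a block CACNA2D4 was called too (0.64, adjusted p = 0.0299, limma), when 15.3% of all genes were. Tested on its own, a dimmer CACNA1G probe set was also called at 24 h (0.99, adjusted p = 0.0373, limma over all kept probe sets). Without course 2 the 24 h change of SCN1A was 1.00 and was not called (adjusted p = 0.0954, limma). Its second probe set rose too, by 1.44 at 48 h and 1.19 at 96 h (adjusted p = 1.62e-05 and 6.35e-05, limma over all kept probe sets). That probe set was above the array median in 6 arrays, all of 48 and 96 h in shOTX2. It passed the filter through these arrays alone, so its rise is no separate support.

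SCN8A encodes Nav1.6, the channel of the mature axon initial segment and nodes of Ranvier. It read 17.6, 2.4 and 11.3 at 0 h, 16.3, 1.7 and 6.5 at 8 h, and 15.4, 2.8 and 11.8 at 16 h. It read 18.5, 1.4 and 14.2 at 24 h, 23.6, 27.2 and 36.8 at 48 h, and 82.2, 74.5 and 59.1 at 96 h. The 96 h arrays stood clear of all earlier ones, and the 48 h arrays lay above every array of 0 to 24 h. Control arrays gave 4.0, 3.2, 16.9, 19.3, 14.0 and 1.7, with its lowest array last. The log2 change at 96 h was 1.77 (SE 0.29, adjusted p = 7.55e-05), and at 48 h it was 0.81 (adjusted p = 0.0414, limma). All 5 kept SCN8A probe sets rose at 96 h, by 0.98 to 1.77. The dimmest of them was above the array median in 4 arrays, all of 48 or 96 h in shOTX2. Another was above it in 7, among them every shOTX2 array of 48 and 96 h. Both passed the filter only through late shOTX2 arrays, so their rise is no separate support. The SCN8A probe set that was not kept read 8.2, 6.7 and 16.3 at 96 h, against 15.6, 1.7 and 10.8 at 0 h.

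SCN2A encodes Nav1.2, an alpha subunit of excitatory neurons and immature axons. It averaged 74.7 ± 13.5 at 48 h and 38.9 ± 5.45 at 96 h, against 38.6 ± 11.3 at 0 h (SD, n = 3 each). It thus rose at 48 h, by 0.74 (adjusted p = 0.0171, limma), with all 48 h arrays above all 0 h arrays, and it was back among the 0 h values at 96 h, where its change was 0.03 (adjusted p = 0.941, limma). Its second probe set was not called at 48 h (log2 change 0.40, adjusted p = 0.278, limma). In the control course it read 5.6 to 16.9, below every shOTX2 array on the first probe set. SCN10A and SCN11A, known from sensory neurons, changed by 0.38 and 0.32 at 96 h, and neither was called.

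SCN3A, SCN2A, SCN1A, SCN9A and SCN7A are neighbours on chromosome 2 in the RefSeq gene order, with 4 other protein-coding genes between SCN2A and SCN1A and none elsewhere. SCN3A and SCN1A, on either side of SCN2A, were thus called higher at 96 h while SCN2A was not. SCN9A and SCN7A, next to SCN1A, did not exceed 17.8 and 9.4 in any array and were too dim to test. SCN4A, the alpha subunit of skeletal muscle, did not exceed 18.0.

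SCN3B encodes a beta subunit that modulates neuronal sodium channels, and it was the only beta subunit bright enough to test. It read 79.8, 52.2 and 55.9 at 0 h, 102.8, 42.9 and 60.9 at 8 h, and 56.0, 56.1 and 49.4 at 16 h. It read 71.1, 50.9 and 48.4 at 24 h, 142.2, 124.0 and 158.0 at 48 h, and 283.5, 170.7 and 172.2 at 96 h. All arrays of 48 h lay above all of 0 to 24 h, and all of 96 h above all of 48 h. The control course read 50.3, 63.0, 79.8, 73.0, 105.8 and 87.8, so it too was higher late than early. The log2 change in shOTX2 was 1.5 at 96 h (SE 0.23, adjusted p = 4.14e-05) and 1.01 at 48 h (adjusted p = 0.00244, limma), and the second probe set rose by 1.08 at 96 h. SCN2B and SCN4B stayed at or under 17.9 and 4.1 in all arrays.

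**Figure D2:**
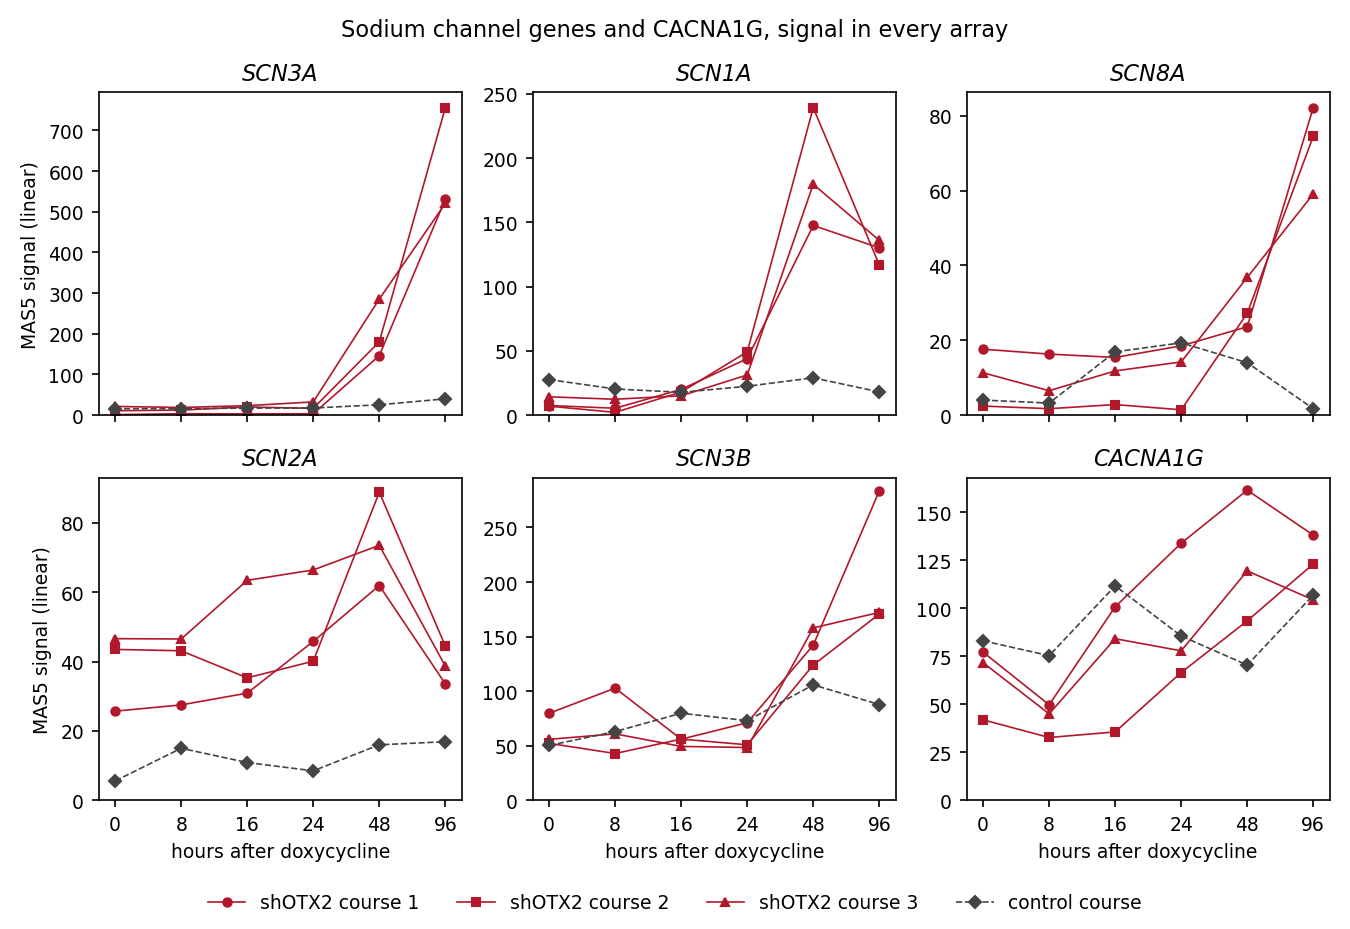
MAS5 signal (linear) against hours after doxycycline for 5 sodium channel genes and CACNA1G, 1 point per array, with the 3 shOTX2 courses in red and the control course dashed in grey. SCN3A, SCN8A and SCN3B are highest at 96 h, and SCN1A and SCN2A peak at 48 h.

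Among calcium channel alpha1 subunits, 7 of 10 genes were tested, 2 rose and none fell at 96 h. CACNA1G encodes Cav3.1, a low-voltage (T-type) channel of neurons. It averaged 122 ± 16.9 at 96 h and 125 ± 34.3 at 48 h, against 63.5 ± 18.9 at 0 h (SD, n = 3 each). All arrays of both late times lay above all 0 h arrays, and the log2 change was 0.82 at 96 h (adjusted p = 0.0286) and 0.83 at 48 h (adjusted p = 0.0343, limma). Of its 4 kept probe sets 2 were called at 96 h, and the other called one had the larger change, 1.77. Control values were 70.4 to 111.6, which overlaps the late shOTX2 arrays. CACNA1G-AS1, its antisense partner, changed by 0.31 and was not called.

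CACNA1F encodes Cav1.4, the L-type channel of photoreceptor terminals. It read 60.2, 27.2 and 38.1 at 96 h and 66.0, 54.9 and 55.7 at 48 h, against 26.3, 4.6 and 20.9 at 0 h. The lowest array of 96 h barely exceeded the highest of 0 h, and course 2 was low at both. The change was 1.23 at 48 h (adjusted p = 0.00627) and 0.82 at 96 h (adjusted p = 0.0473, limma), and the 96 h call was lost under 7 of 11 alternatives. The control course read 29.6 at 0 h and up to 77.1 at 16 h, above all shOTX2 arrays of these times. Later it read 40.3 at 48 h, below all shOTX2 arrays of that time. At 96 h the control read 49.7, above the shOTX2 arrays of courses 2 and 3.

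The remaining tested alpha1 genes were not called at 96 h. CACNA1A, the presynaptic P/Q-type gene, changed by 0.30, and CACNA1C, the cardiac and neuronal L-type gene, by 0.39. The skeletal muscle L-type gene CACNA1S changed by -0.42, and the T-type genes CACNA1H and CACNA1I by -0.06 and -0.49. CACNA1B, CACNA1D and CACNA1E, of the N, L and R types, did not pass the filter.

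All 3 tested alpha2delta subunits changed at 96 h, in both directions. These proteins bring the channel complex to the membrane. CACNA2D4, whose product is known from photoreceptor terminals, read 14.4, 27.1 and 20.5 at 0 h, 13.1, 18.9 and 31.1 at 8 h, and 22.8, 21.2 and 43.1 at 16 h. It read 24.2, 44.1 and 59.1 at 24 h, 176.0, 200.8 and 213.7 at 48 h, and 235.3, 219.3 and 183.3 at 96 h. Most of its gain thus fell between 24 and 48 h, and the 48 and 96 h arrays overlapped. From 0 to 96 h the control had 7.3, 18.1, 36.2, 25.4, 29.0 and 54.6, so its last array was its highest. The log2 change was 2.65 at 96 h (SE 0.24, adjusted p = 7.67e-08) and 2.55 at 48 h (adjusted p = 3.02e-07, limma). On the dimmer probe set the 96 h change was 0.66 (adjusted p = 0.0208, limma over all kept probe sets).

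CACNA2D2, known from Purkinje cells of the mouse cerebellum, rose later. It read 17.2, 11.4 and 19.4 at 0 h, 23.7, 13.8 and 15.3 at 8 h, and 30.1, 16.1 and 24.1 at 16 h. It read 20.9, 13.9 and 4.9 at 24 h, 38.1, 18.2 and 74.0 at 48 h, and 159.5, 123.7 and 120.6 at 96 h. The courses differed at 48 h, where course 2 was still within the range of 0 h, and all were well above every earlier array at 96 h. The control course read 11.6, 14.5, 27.9, 8.8, 6.7 and 24.2. The log2 change was 2.23 at 96 h (SE 0.28, adjusted p = 4.32e-06) and 0.79 at 48 h (adjusted p = 0.0400, limma). The gene has 1 kept probe set.

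CACNA2D1, the widely expressed member and the target of gabapentin, fell at 96 h. It averaged 313 ± 42.6 at 96 h, against 416 ± 26.2 at 0 h (SD, n = 3 each), and 417 ± 32.7 at 48 h. Each 96 h array lay below each 0 h array. The change was -0.40 (SE 0.11, adjusted p = 0.0077, limma), and the control course read 462.6 at 96 h and 370.8 at 0 h. A dimmer probe set had a change of 0.14 that was not called. CACNA2D3 did not pass the filter, with signals of 1.0 to 19.9. With no filter it was called higher at 48 h (0.75) and 96 h (0.58, adjusted p = 0.00504, limma), at levels near or below the array median.

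Of the 3 calcium channel beta subunits, which bind the pore from inside the cell, CACNB3 rose, CACNB2 fell and CACNB1 was not called. CACNB2, a beta subunit of heart and photoreceptors among other tissues, read 198.4, 256.8 and 226.6 at 0 h, 166.3, 210.6 and 194.0 at 8 h, and 223.2, 237.9 and 282.2 at 16 h. It read 205.9, 201.8 and 252.5 at 24 h, 249.8, 233.0 and 216.4 at 48 h, and 143.2, 147.4 and 158.5 at 96 h. Every 96 h array lay below every shOTX2 array of the other times. Control signals were 221.8, 220.9, 311.1, 321.1, 287.8 and 330.0, with higher values from 16 h on. The change in shOTX2 was -0.55 at 96 h (SE 0.13, adjusted p = 0.00212, limma). Of 6 kept CACNB2 probe sets, the 2 brightest were called lower and the other 4 were not called, with changes of -0.13 to 0.34.

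CACNB3, a neuronal beta subunit, averaged 141 ± 50.7 at 96 h, against 66.4 ± 21.7 at 0 h (SD, n = 3 each). All 96 h arrays lay above all 0 h arrays, with course 1 the highest at both times. The change was 0.91 (adjusted p = 0.0155, limma), and both kept probe sets were called. At 48 h its change of 0.68 passed the test if courses entered the model as blocks (adjusted p = 0.000715) and missed it otherwise (adjusted p = 0.0811, limma). CACNB1 averaged 50.3 ± 3.55 at 96 h, against 24.1 ± 12.2 at 0 h, a change of 0.77 that was not called (adjusted p = 0.0988, limma). Its 96 h arrays also did not overlap those of 0 h, and it was called with a pseudocount of 64 (adjusted p = 0.0400) and with only the compared groups in the fit (adjusted p = 0.0267, limma). The other kept CACNB1 probe sets changed by 0.06 and 0.25, and neither was called.

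No gamma gene was called at any time. Of 8 genes 4 were tested, and their 96 h changes were -0.34 for CACNG4, -0.26 for CACNG5, 0.22 for CACNG6 and 0.01 for CACNG7. CACNG1, the gamma subunit of the skeletal muscle channel, and the AMPA receptor partners CACNG2, CACNG3 and CACNG8 did not pass the filter and did not exceed 35.0 in any array. GRIA2, an AMPA receptor subunit, rose by 6.36 at 96 h, and it was the 1 of 4 tested partners of this group called at that time. At 48 h both GRIA2 and CNIH3 were called higher, by 3.73 and 0.66.

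**Figure D3:**
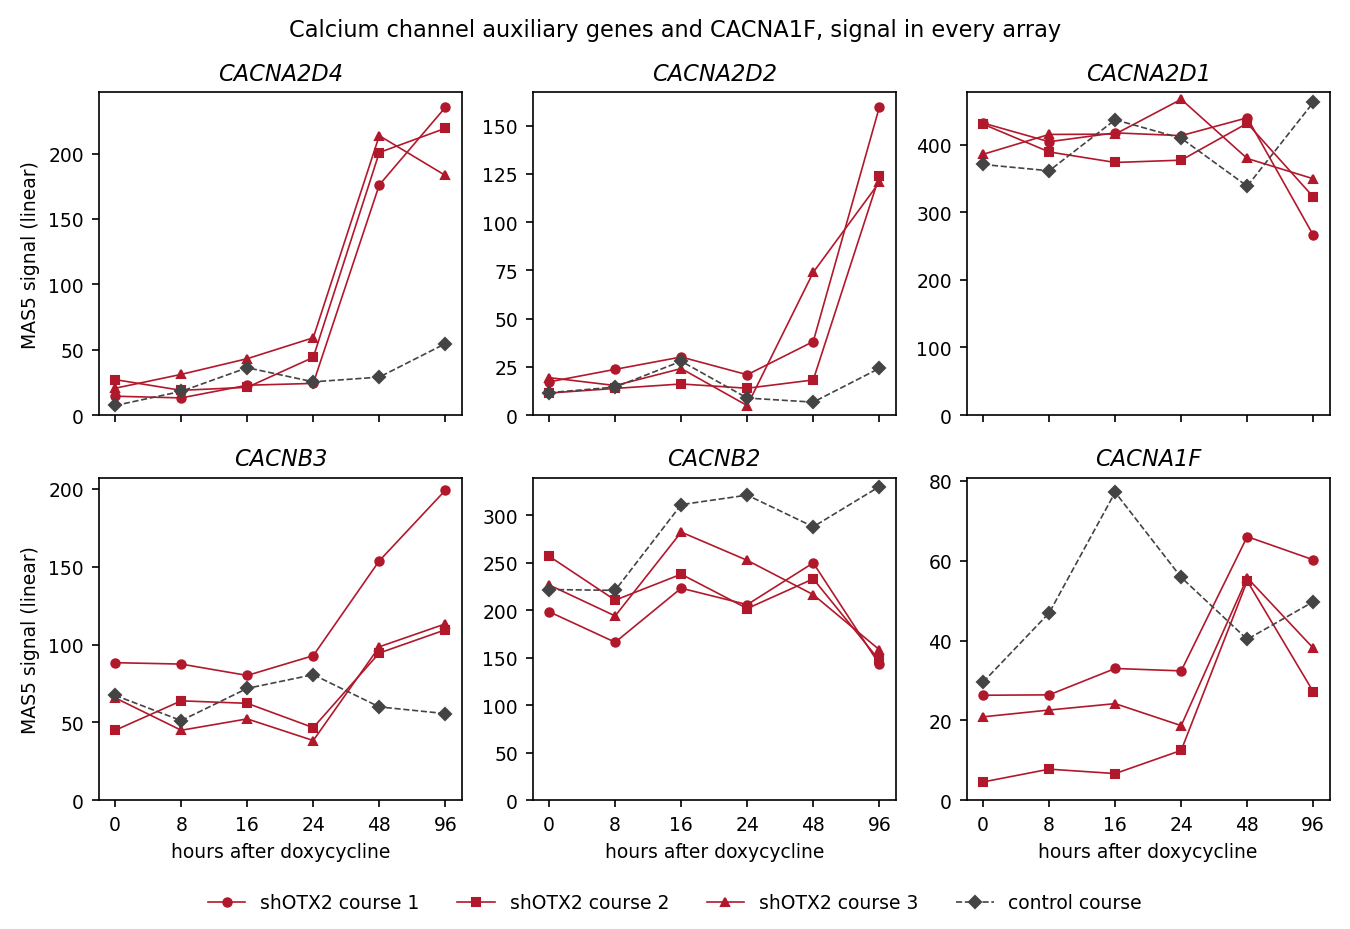
MAS5 signal (linear) against hours after doxycycline for the alpha2delta genes CACNA2D4, CACNA2D2 and CACNA2D1, the beta genes CACNB3 and CACNB2, and CACNA1F, 1 point per array, with the 3 shOTX2 courses in red and the control course dashed in grey. CACNA2D4 is high from 48 h and CACNA2D2 at 96 h, while CACNB2 and CACNA2D1 are lowest at 96 h in shOTX2.

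Calls of channel genes came late in the courses. At 8 h no channel gene and no gene at all was called by limma, with 1 of 25 channel genes and 462 of 13903 genes at an unadjusted p under 0.05. At 16 h no channel gene was called and none had an unadjusted p under 0.05, against 1.02% of all genes called (0.633% higher and 0.388% lower). At 24 h 1 gene had risen and none had fallen, against 3.45% of all genes that rose and 2.70% that fell, and at 48 h 9 had risen and none had fallen, against 16.3% of all genes that rose and 17.0% that fell. The 9 genes are 36% of those tested, against 33.3% called among all genes. Between them, 48 and 96 h had 12 called genes, of which 8 were called at both times. SCN2A was called at 48 h and not at 96 h, and CACNB2, CACNB3 and CACNA2D1 at 96 h and not at 48 h. Whether these genes' changes differ between the times was not tested.

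The arrays of 96 h and 0 h did not overlap in 17 channel genes, 13 higher and 4 lower, against 24.9% of all genes higher and 25.4% lower. Between 96 and 48 h, 7 genes were higher in all 96 h arrays (CACNA1C, CACNA2D2, CACNB1, SCN11A, SCN3A, SCN3B and SCN8A) and 6 were lower in all (CACNA1S, CACNA2D1, CACNB2, CACNG4, SCN1A and SCN2A). Over all genes these shares were 14.0% and 15.8%. Each of the 11 genes called at 96 h moved in the direction of its call in all 3 courses.

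The control course allowed a comparison of the late change between the arms, taking late as the mean of 48 and 96 h and early as the mean of 0 and 8 h. The difference was called for 5 of 25 genes, 4 higher and 1 lower, which is 20% against 22.5% of all genes (10.5% higher and 12% lower). SCN3A changed by 3.78 in shOTX2 and by 0.60 in the control course, a difference of 3.18 (adjusted p = 0.000258, limma). SCN1A changed by 2.84 in shOTX2 and by -0.02 in the control, a difference of 2.87 (adjusted p = 2.34e-06, limma). These were the widest gaps among the channel genes.

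For CACNA2D4 the late change was 2.60 in shOTX2 and 1.00 in the control course, so the control too had higher late values, and the difference was 1.60 (adjusted p = 0.00218, limma). CACNA2D2 changed by 1.48 in shOTX2 and by 0.06 in the control, a difference of 1.42 (adjusted p = 0.0159, limma). CACNB2 changed by -0.14 in shOTX2 and by 0.45 in the control, a difference of -0.59 (adjusted p = 0.0286, limma). With both late times averaged, the CACNB2 difference thus lay more in the higher late values of the control than in lower ones of shOTX2. SCN8A, with a difference of 1.12 (adjusted p = 0.0609, limma), and SCN3B, with 0.59, were not called, and the control's late change of SCN3B was 0.64. With the course as a block the difference was called for 9 of 25 genes, 8 higher and 1 lower, which is 36% against 35% of all genes. The 4 genes added by the block were SCN8A, CACNA1G (0.92), CACNB3 (0.83) and CACNA1F (0.80), with adjusted p of 0.0101, 0.00549, 0.00389 and 0.0187 by limma.

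**Figure D4:**
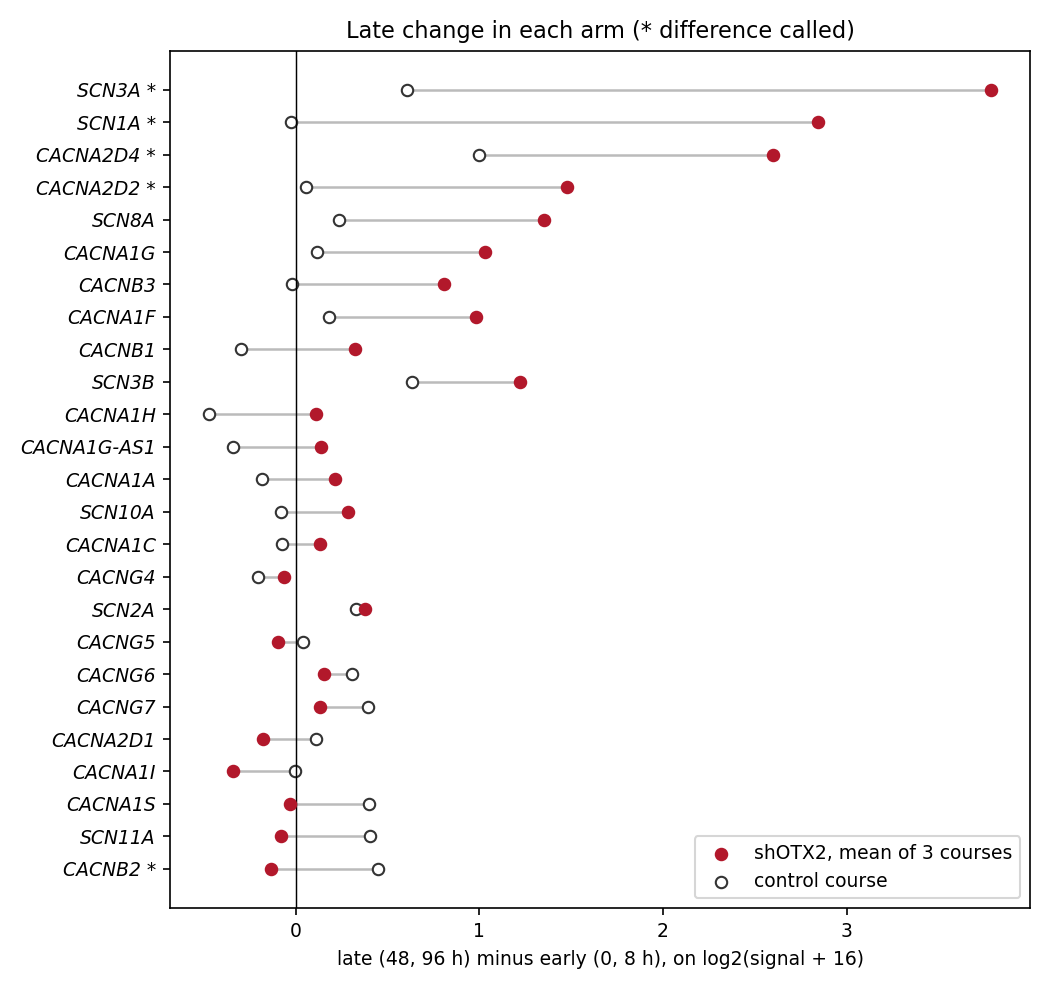
Late (48 and 96 h) minus early (0 and 8 h) level on the log2(signal + 16) scale for the 25 tested channel genes, with filled red points for shOTX2 (mean of 3 courses) and open points for the control course (1 array a time). Asterisks mark the 5 genes whose difference between the arms was called, and SCN3A has the widest gap, 3.18.

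Where a gene had several probe sets, they mostly moved the same way. Of the 47 kept channel probe sets 20 were called at 96 h when each was tested on its own, against 39.8% of 27081 kept probe sets. In 12 genes more than 1 probe set was kept, and in CACNA2D1 and CACNB2 these differed in sign. Both kept probe sets of SCN1A, SCN3B, CACNA2D4 and CACNB3 were called higher. The signals of different probe sets are not comparable as levels. The added 16 dampens changes more on dim probe sets, and in CACNA1G a dimmer one had the larger change, 1.77 against 0.82. Why the probe sets of a gene differ was not tested.

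**Figure D5:**
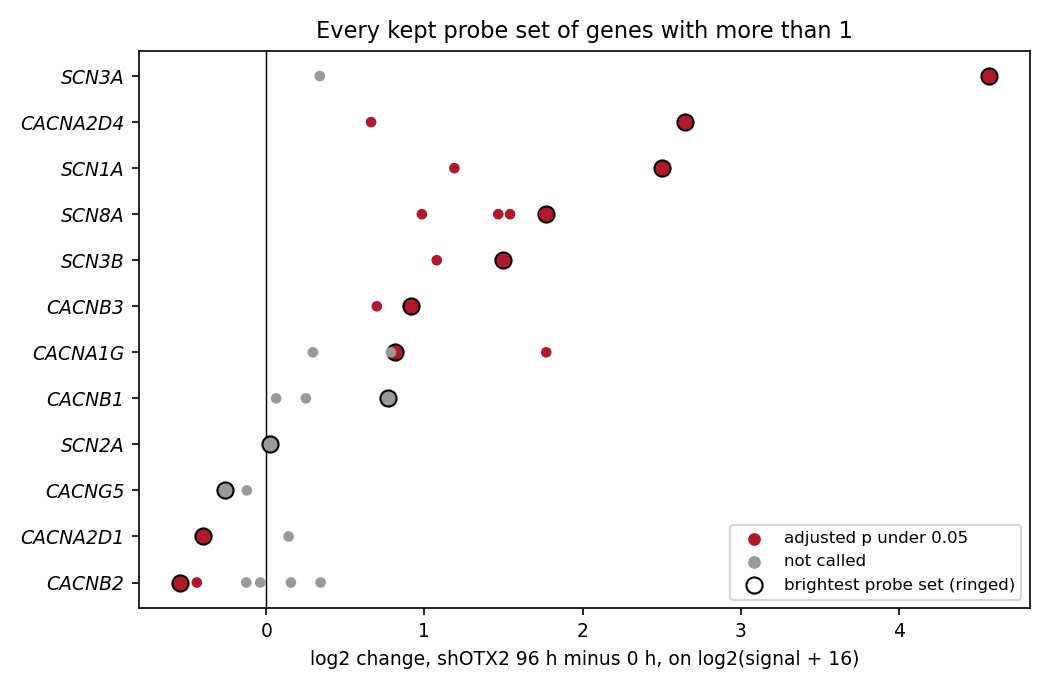
Log2 change at 96 h against 0 h in shOTX2 on the log2(signal + 16) scale for each kept probe set of the 12 channel genes with more than 1, with the brightest probe set ringed and called ones in red (some points overlap). The 5 kept SCN8A probe sets all lie at 0.98 or above, while the SCN3A pair lies at 4.57 and 0.34.

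Genes that work with these channels were also counted. Over all tested genes 21.1% rose and 22.5% fell at 96 h, the shares to set beside each list below. Of 13 tested sodium channel partners and axon initial segment genes, 6 rose and 1 fell at 96 h. NFASC, which encodes the adhesion molecule neurofascin, averaged 586 ± 90.8 at 96 h, against 243 ± 34.1 at 0 h (SD, n = 3 each), a change of 1.21 (adjusted p = 0.000116, limma). ANK2 and NRCAM rose by 1.09 and 1.01, and CNTN1, an axonal adhesion molecule, fell by 0.42. ANK3, which encodes ankyrin-G, the anchor of sodium channels at the initial segment, rose by 0.95 and is named here after its value was seen. The median of the list was 0.32.

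Of 23 tested calcium channel partners and presynaptic scaffold genes, 7 rose and 6 fell, with a median of 0.06. REM2, a small GTPase that inhibits these channels, rose by 2.18, and STAC and STAC3, adaptors of L-type channels, by 1.93 and 1.83. The active zone scaffold gene ERC2 averaged 47.3 ± 23.3 at 96 h, against 1038 ± 97.5 at 0 h (SD, n = 3 each), a change of -4.13 (adjusted p = 1.53e-09, limma). JPH1, a junctophilin, and RIMS1, which tethers presynaptic calcium channels, fell by 2.12 and 1.62. Partners of calcium channels thus moved in both directions in the arrays where CACNA2D2 and CACNA2D4 rose.

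Among 18 tested genes of calcium stores, pumps and exchangers, 4 rose and 3 fell at 96 h, with a median of -0.25. ATP2A1, the fast-twitch muscle calcium pump, rose by 4.70, SLC8A2, a sodium-calcium exchanger of neurons, by 3.19, and RYR1, the skeletal muscle release channel, by 1.48. ITPR1, ATP2B4 and ATP2A2 fell by 1.37, 0.57 and 0.48. Among 20 calcium sensors and effectors 6 rose and 5 fell. BDNF, an activity-regulated neurotrophin, rose by 3.47, NFATC4 by 1.10 and MEF2C by 1.02, and PPP3CC, CAMK1 and MEF2D fell by 1.78, 0.82 and 0.79. Of 7 leak and two-pore channel genes, UNC79 and NALF2 rose, by 0.83 and 0.58, and none fell.

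Markers of several cell types moved in the same arrays, and their part in the channel results was not tested. Of 9 tested neuronal markers 7 rose and none fell at 96 h, and the summed signal of the 11 listed genes was 6747 to 7339 at 96 h, against 4013 to 5191 at 0 h in shOTX2. The control course had sums of 3824 at 96 h and 4359 at 0 h. Of 10 photoreceptor markers 1 rose and 7 fell, with sums of 1614 to 1839 at 96 h, against 3269 to 4263 at 0 h in shOTX2, and 3042 at 96 h against 2542 at 0 h in the control course. Of the channel genes known from photoreceptors, CACNA2D4 and CACNA1F rose at 96 h and CACNB2 fell in the same arrays, and the call of CACNA1F was the one lost under most alternatives. CRX, a photoreceptor homeobox gene, was the marker that rose, by 1.24.

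Of 9 tested skeletal muscle markers 4 rose, namely NEB, TNNC2, MYOG and RYR1, and none fell. The sum over 18 listed genes was 1752 to 2066 at 96 h, against 210 to 350 at 0 h in shOTX2, and 639 at 96 h against 376 at 0 h in the control course. Most of the shOTX2 sum at 96 h was NEB, which averaged 1303 there, against 12.5 at 0 h. On the same list MYOG rose by 1.72, MYOD1, MYF5 and CKM did not exceed 13.1, 14.2 and 5.2 in any array, and ACTA1 and DES were not called. Of the muscle channel genes, CACNA1S was not called and CACNG1 and SCN4A were too dim to test. No listed marker was at 0 in all arrays. Of the other lists, 1 of 4 cardiac markers and 4 of 6 mesenchymal markers rose and none fell, and 2 of 7 astrocyte and oligodendrocyte markers rose and 2 fell. The mesenchymal sum was 589 to 1173 at 96 h, against 106 to 134 at 0 h, and COL1A1 alone averaged 542 and 39.1 at these times. The cardiac sum was 139 to 152 at 96 h against 93.3 to 136 at 0 h, and the glial sum was 668 to 768 at 96 h against 743 to 836 at 0 h.

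Of the 11 genes called at 96 h, SCN3A, SCN1A, SCN8A, SCN3B, CACNA2D2 and CACNA2D4 were called under each of the 11 alternatives run. The other 5 lost the call under at least 1. CACNB3 lost it without course 2 or course 3, CACNA1G without either of these and with quantile normalization, CACNB2 without course 2 and with the mean of its probe sets, and CACNA2D1 without course 1 or 2 and with the mean of its probe sets. At 48 h the calls of CACNA2D2 and SCN8A were lost under 6 and 5 of the 11 alternatives, that of CACNA1G under 3, that of SCN2A under 2, and those of CACNA1F and SCN3B under 1 each. On their brightest kept probe set, all 11 genes called at 96 h passed the filter without the 48 and 96 h shOTX2 arrays. So did 23 of the 25 tested genes. Some dimmer probe sets, such as that of SCN1A, did not. With no filter 11 of 38 genes were called at 96 h, against 29.9% of 19775 genes. The 13 genes that were not tested gave signals of 0.2 to 35.0 over their 29 probe sets, with a median of 3.5.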

How the data were processed

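Total RNA of 24 D425 samples was hybridised to Affymetrix U133 Plus 2.0 arrays, per the labels' protocols. Each deposited value is a linear signal intensity for 1 probe set. It was made with MAS5 and GCOS per the submitters' processing notes, which give no versions, with each array scaled as a whole: the trimmed mean (2% at each end) was 100.011 to 100.014. No array was a copy of another (identical values in at most 1.2% of probe sets of a pair). No detection calls were used, and precision is limited by the small number of arrays.

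Symbols came from the platform annotation, updated by Entrez ID with the RefSeq table of GRCh38.p14. A probe set was kept when above the array median in at least 3 arrays, and the brightest kept probe set stood for its gene. Log2(signal + 16) was fitted with limma 3.58.1 in R 4.3.3 on the means of 12 groups, with a mean-variance trend and 12 residual degrees of freedom, and p-values were Benjamini-Hochberg adjusted over 13903 genes. Control arrays were assumed to vary like shOTX2 arrays. The script was tested on simulated data, where it recovered 46 of 100 changes of 0.75 and 93 of 100 changes of 1.5 at 96 h. Changes of the smaller size can thus be missed. Alternatives changed the pseudocount (1 or 64), filter, probe set rule, scaling, block, courses or groups fitted. The course number pairs arrays, since the labels describe independent courses and all 45 same-course pairs of arrays correlated in their deviations (r 0.157 to 0.556). The reported fit did not use this pairing, and an alternative took the course as a block. Genes, lists and tests were chosen with earlier results of these data known. Array values are given for genes called at 96 h with a change of at least 1, called between the arms or called by 24 h, and for CACNA1F. From related lists, up to 3 called rises and 3 called falls are named.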

Additional observations from a re-analysis of the deposited data

Results flagged for a closer look

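The late change differed between the shOTX2 courses and the control course in 5 channel genes by the test of the difference itself (limma, adjusted over all tested genes). The differences on the log2 scale were 3.18 for SCN3A, 2.87 for SCN1A, 1.60 for CACNA2D4, 1.42 for CACNA2D2 and -0.59 for CACNB2. The control course has 1 array at each time, so its own spread is not measured. All but CACNB2 kept this call under each of the 11 alternatives run, and CACNB2 lost it under 4, with an adjusted p of 0.0628 to 0.498 there.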

How the results depend on the processing

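Of 440 values of single genes under the alternatives, 390 kept direction and side of the threshold, 40 lost the call, 2 gained it and 8 changed sign. The 8 are 96 h changes that were called neither there nor in the reported fit. CACNA1H (-0.06) became 0.45 without course 1 (-0.52 to 0.45 with a course left out). CACNG7 (0.01) became -0.02 with median centring, -0.09 with quantile normalization, -0.01 without course 1 and -0.02 without course 2 (at most 0.07, without course 3). SCN2A (0.03) became -0.01, -0.14 and -0.09 with median centring, with quantile normalization and without course 1 (at most 0.14, without course 3). With every kept probe set tested on its own, the calls were 2 at 24 h, 16 at 48 h, 20 at 96 h and 11 between the arms, since 47 probe sets stand for the 25 genes. Of all 27081 kept probe sets 39.8% were called at 96 h. That share was not taken for the other comparisons, so their counts have no background here. With the course as a replicate block, 2 genes were called at 24 h and 9 between the arms, against 1 and 5 without it, and 10 and 11 at 48 and 96 h, against 9 and 11. Of all genes the block called 15.3% at 24 h, 44.6% at 48 h, 53.8% at 96 h and 35% between the arms. Leaving out 1 course gave 0 to 1 calls at 24 h (0 without course 2), 4 to 9 at 48 h (4 without course 3), 6 to 9 at 96 h (6 without course 2) and 4 to 8 between the arms (8 without course 1). In the 4 fits named, 0.583%, 21.5%, 30.3% and 29.2% of all genes were called. Fewer arrays remain in these fits, and the further cause was not tested. Median centring and quantile normalization moved the median change of all genes at 96 h by -0.0389 and -0.0756. Calls at 8 and 16 h stayed at 0 when a course was left out. Signals that exceeded the array median in at most 2 arrays left 13 genes without a test.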
